A study of Rattus norvegicus with 23 samples.

Results

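The 9 genes described here were chosen as muscle-enriched. Their mean level in rat median nerves repaired with a muscle-in-vein graft (MIV) lay above the level in healthy muscle. They are 9 of 32545 gene identifiers in the count table and 9 of 2842 muscle-enriched genes. A gene was called muscle-enriched if healthy muscle exceeded both healthy nerve and healthy vein by more than 1 on the log2 scale, each with an edgeR adjusted p below 0.05. Of 15954 genes tested, edgeR called 31.5% higher and 35.8% lower in muscle than in nerve, and 30.8% and 33.4% against vein. The genes were chosen by these measured levels, MIV against healthy muscle, so their level against healthy muscle is given as a description. EdgeR's calls of MIV against healthy muscle are used below only to show what the choice fixed, and are no support. All 9 passed the filter on low counts, both in the 12 repaired libraries and in all 23. The count table pairs no identifier with a gene name and 0 of the 9 matched the reference gene table, so the genes are given by identifier, and their functions, positions and sequences are not printed.

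The rats were adult, female and wild type (WT), and the 23 libraries form 7 groups. Per the series design, the median nerve was transected with a gap of 8 mm and bridged with a graft 10 mm long. MIV nerves (3 libraries at day 3 and 3 at day 7) carry the treatment label "Repair after cut injury and MIV", and EV nerves (3 and 3) the label "Repair after cut injury". The labels do not spell out EV. The references were untreated and labelled day 0: epigastric vein (n = 3), adductor muscle (n = 3) and uninjured median nerve (n = 5), and the labels do not say which muscle filled the graft. Since no label assigns the libraries to separate animals, the p-values cover the spread between these libraries, which may be technical.

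A muscle-in-vein graft is a vein packed with skeletal muscle, used as a conduit for regrowing axons. Muscle moved in this way loses its nerve and blood supply, and its fibres can degenerate. Satellite cells, the stem cells of muscle, can then divide and fuse into new fibres, which first make developmental forms of contractile proteins. In bulk libraries such as these, fewer cells of a type and less RNA per cell cannot be told apart.

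Library totals ran from 12504035 to 17314324 counts. Levels below are CPM (counts scaled to sequencing depth) after TMM scaling, which corrects for libraries in which a few genes take many of the counts. The TMM factors were 0.410 to 0.421 in healthy muscle and 1.03 to 1.24 elsewhere, so that a level in healthy muscle depends strongly on the scaling. The amount of muscle RNA was followed by the share of counts in 802 muscle-specific genes, more than 3 log2 units above both other healthy tissues, without the 9. This share was 51.5% to 57.0% in healthy muscle, 1.90% to 2.23% in nerve, 2.43% to 2.87% in vein and 2.602% to 3.39% in EV. It was 3.70% to 5.74% in MIV at day 3. The MIV libraries of day 7 stood apart from each other, at 8.91% in replicate 1, 2.59% in replicate 2 and 18.5% in replicate 3.

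By their levels, and after these were seen, the genes were set in 3 groups. ENSRNOG00000050675, ENSRNOG00000009047, ENSRNOG00000019527, ENSRNOG00000018286, ENSRNOG00000021014 and ENSRNOG00000002451, called the set of 6 below, had a day 3 mean in MIV of 3.17 to 8.58 times the healthy muscle mean. ENSRNOG00000050042 and ENSRNOG00000026087, called the pair below, overlapped healthy muscle in MIV at day 3 and lay above it in every library at day 7. ENSRNOG00000010646 had a day 3 ratio of 1.29 and was set apart because it was also well read in EV, nerve and vein. Values are given for replicates 1, 2 and 3 in that order. Gene lengths are not known here, so levels are compared between libraries and not between genes.

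ENSRNOG00000050675 stood at 194, 42.7 and 26.5 CPM in MIV at day 3 and at 226, 47.4 and 552 CPM at day 7. EV gave 0.867, 1.15 and 2.25 CPM at day 3 and 0.499, 1.61 and 1.16 CPM at day 7, and healthy muscle 21.5, 18.4 and 22.8 CPM. Every MIV library lay above every healthy muscle library, and every healthy muscle library above every EV library. Vein (0.746 to 1.11 CPM) overlapped EV, and nerve (0.213 to 0.615 CPM) lay below vein.

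ENSRNOG00000009047 was read in muscle and in MIV and nearly nowhere else. It stood at 84.5, 11.04 and 10.7 CPM in MIV at day 3, at 138, 8.62 and 437 CPM at day 7 and at 8.86, 0 and 3.52 CPM in healthy muscle. EV held 7 counts, all in replicate 2 of day 3, and the 8 nerve and vein libraries held 0. All day 3 MIV libraries were above all healthy muscle libraries, whereas at day 7 MIV replicate 2 was just below the highest of them.

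ENSRNOG00000019527 had a like distribution, with 0 counts in nerve and vein and 5 in EV, again all in replicate 2 of day 3. It stood at 75.3, 17.2 and 12.8 CPM in MIV at day 3, at 65.4, 7.95 and 265 CPM at day 7 and at 18.6, 2.12 and 8.59 CPM in healthy muscle. Healthy muscle overlapped MIV at both days and did not overlap EV.

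ENSRNOG00000018286 was read in every EV and nerve library at a low level and in no vein library. MIV gave 87.7, 20.4 and 23.1 CPM at day 3 and 58.3, 6.79 and 199 CPM at day 7, and healthy muscle 9.58, 2.12 and 12.5 CPM. EV gave 0.333, 2.05 and 0.119 CPM at day 3 and 0.499, 0.194 and 0.475 CPM at day 7, overlapping nerve (0.0703 to 0.355 CPM). The day 3 MIV libraries all lay above healthy muscle, and at day 7 replicate 2 fell within its range.

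ENSRNOG00000021014 stood at 14.4, 2.63 and 3.31 CPM in MIV at day 3, at 12.0, 1.02 and 40.2 CPM at day 7 and at 1.99, 0.653 and 0.845 CPM in healthy muscle. It had 5 counts in EV at day 3 and 0 in EV at day 7, where a count of 0 allows up to 0.0594 CPM over the group (3 counts). ENSRNOG00000002451 stood at 15.1, 3.43 and 3.98 CPM in MIV at day 3, at 7.00, 0.883 and 33.8 CPM at day 7 and at 2.53, 1.63 and 2.96 CPM in healthy muscle, with 10 counts over the 6 EV libraries. For both genes all day 3 MIV libraries lay above healthy muscle, and day 7 overlapped it, with replicate 2 in or below its range.

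The pair had been set apart by its levels at day 3 and day 7. ENSRNOG00000050042 stood at 4.18, 1.26 and 0.960 CPM in MIV at day 3, overlapping healthy muscle (7.77, 0.653 and 9.16 CPM), and at 244, 24.04 and 1896 CPM at day 7. It had 1 count over the 6 EV libraries and 1 over the 8 nerve and vein libraries. ENSRNOG00000026087 stood at 3.87, 2.86 and 2.83 CPM in MIV at day 3, against 3.98, 0 and 1.41 CPM in healthy muscle, and at 119.7, 5.84 and 548 CPM at day 7, with 2 counts in EV and 1 in nerve and vein. For both genes every day 7 MIV library, replicate 2 included, lay above every day 3 MIV library and every healthy muscle library.

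ENSRNOG00000010646 stood at 56.2, 38.2 and 35.5 CPM in MIV at day 3 and at 54.0, 88.3 and 67.3 CPM at day 7. EV gave 25, 42.0 and 39.0 CPM at day 3 and 19.8, 29.5 and 27.1 CPM at day 7, and healthy muscle 39.2, 23.2 and 38.2 CPM. Its highest library was MIV day 7 replicate 2, whereas the other 8 genes were highest in replicate 3 of that day. MIV at day 3, EV at day 3 and healthy muscle overlapped, and vein (12.3 to 16.6 CPM) and nerve (6.85 to 12.5 CPM) were below all of them.

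**Figure D1:**
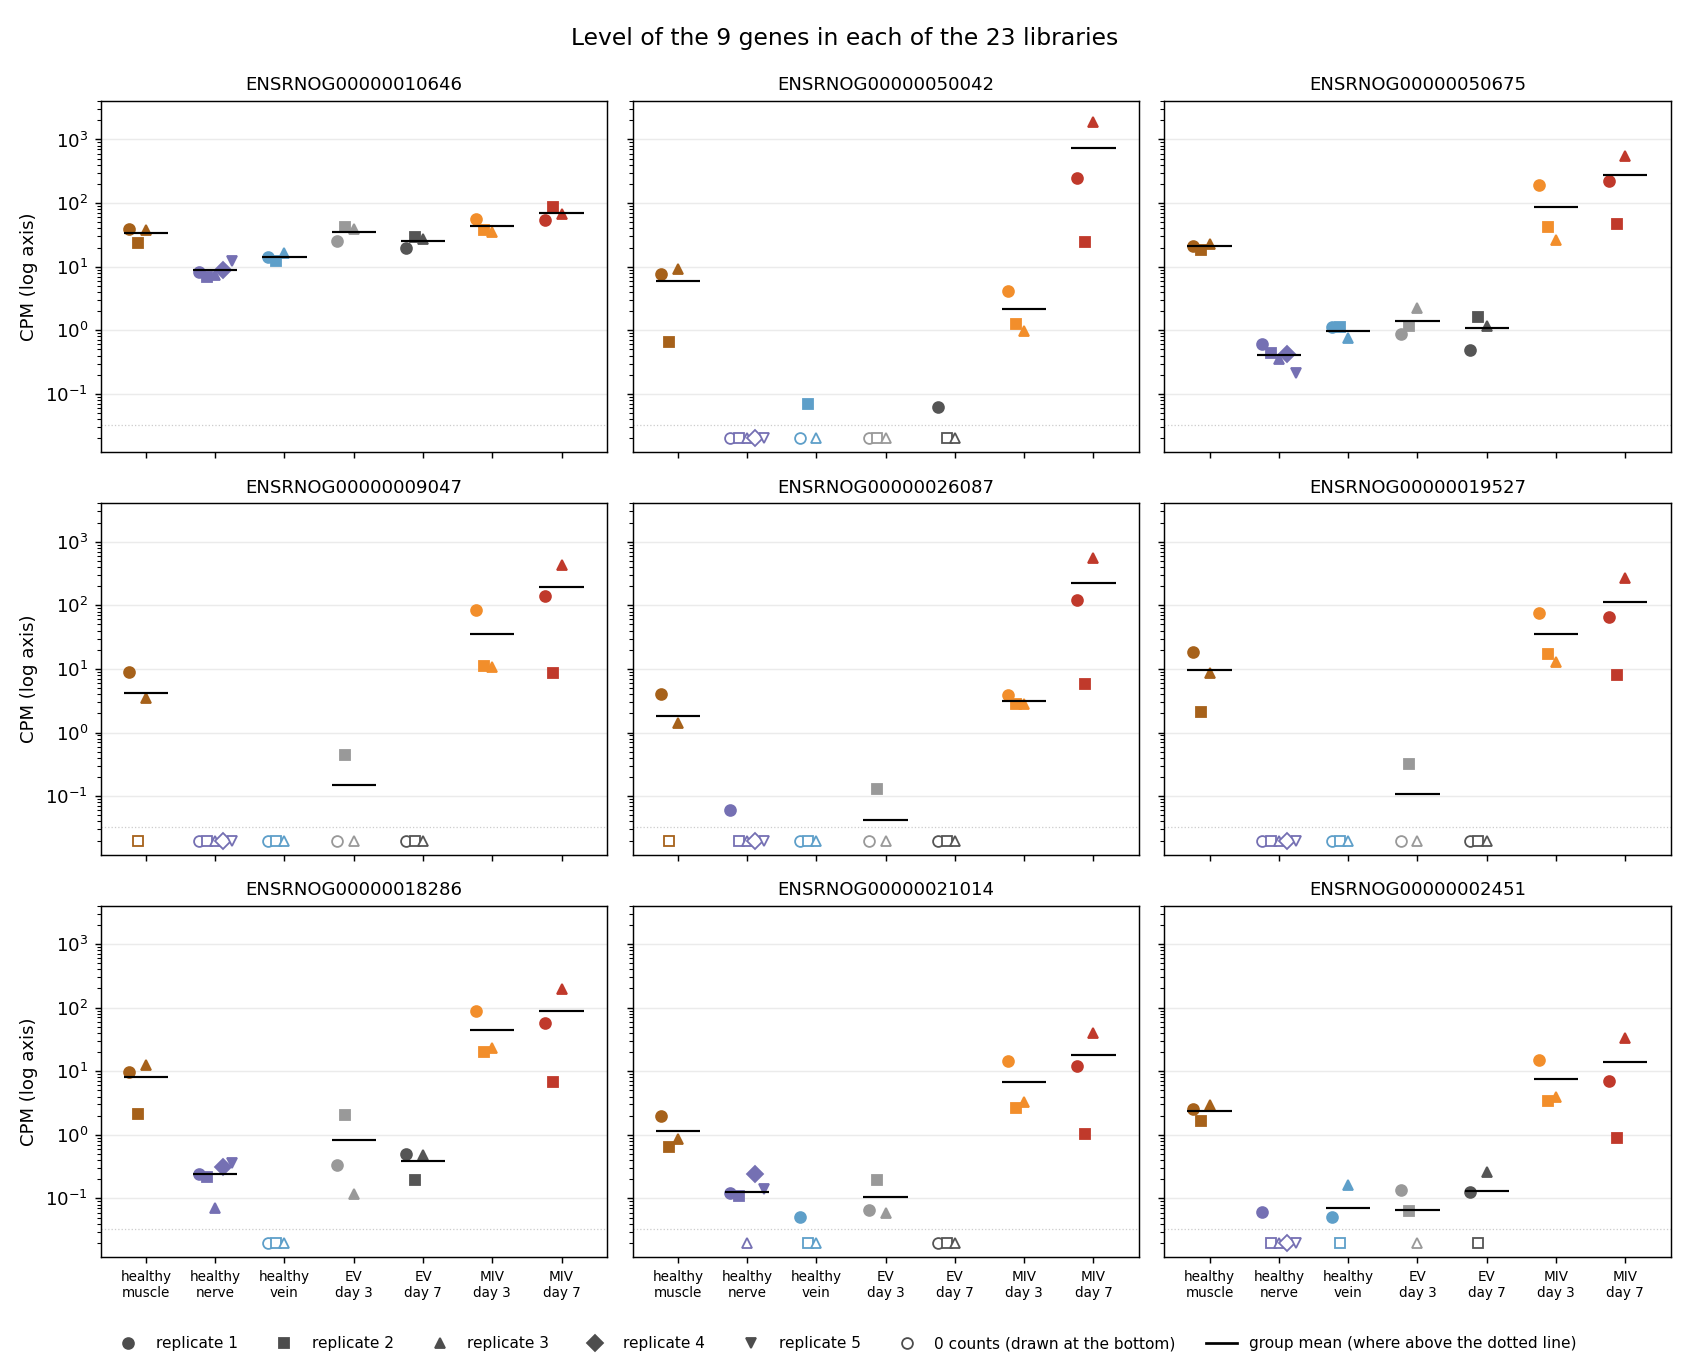
Level of each gene (CPM, log axis) in the 23 libraries by group, 1 symbol per library, with open symbols for 0 counts and lines for group means above the dotted line. For 8 of the 9 genes all 6 MIV libraries lie above all 6 EV libraries, and the exception is ENSRNOG00000010646, at 35.5 to 88.3 CPM in MIV and 19.8 to 42.0 CPM in EV.

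Against healthy muscle, the comparison that chose the genes, the ratio of the MIV mean over both days to the healthy muscle mean was 1.69 for ENSRNOG00000010646, 4.51 to 27.8 for the set of 6, 61.7 for ENSRNOG00000050042 and 63.4 for ENSRNOG00000026087. In all, 108 muscle-enriched genes had a ratio above 1. Among muscle-enriched genes the pair ranked 1 and 2 by this ratio, the set of 6 between 4 and 24, and ENSRNOG00000010646 60, with other genes between them. Next to the lowest of the 9 were ENSRNOG00000002385 at 1.70 and ENSRNOG00000011923 at 1.65, which are not among them. At day 3 the ratio was 0.364 for ENSRNOG00000050042 and 1.29 to 8.58 for the other 8. At day 7 it was 2.08 for ENSRNOG00000010646, 5.85 to 47.1 for the set of 6, 123 for ENSRNOG00000050042 and 125 for ENSRNOG00000026087.

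The scaling moved these ratios. With library totals alone the day 3 ratio of ENSRNOG00000050042 was 1.02, and with TMM factors from genes that are not muscle-enriched it was 0.282, while that of ENSRNOG00000010646 was 1.003. The day 7 ratios of all 9 stayed above 1 under each of the 4 scalings, the lowest being 1.68 for ENSRNOG00000010646. With library totals alone, ENSRNOG00000010646, ENSRNOG00000009047, ENSRNOG00000026087 and ENSRNOG00000021014 were not muscle-enriched, and ENSRNOG00000010646 was lower in healthy muscle (13.9 CPM) than in vein (16.7 CPM).

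MIV and EV were compared to see how the levels of the 9 genes differed between the repairs with these labels. Exactly 11 muscle-enriched genes were above both healthy muscle and EV over both days in edgeR's test, and the 9 are among them; against healthy muscle, which the choice used, 35.4% of all genes were called higher and 33.9% lower. The comparison also uses the MIV libraries that chose the genes, so it is no independent support. Over both days all 9 were higher in MIV (edgeR adjusted p 0.0110 to 0.0439), where 1.42% of 15036 genes were called higher and 0.12% lower. ENSRNOG00000050675 was higher by a log2 fold change of 6.96 ± 0.81 (SE, edgeR adjusted p = 0.0110), ENSRNOG00000018286 by 6.75 ± 0.98 (adjusted p = 0.0121), ENSRNOG00000002451 by 6.67 ± 1.07 (adjusted p = 0.0161) and ENSRNOG00000010646 by 0.87 ± 0.18 (adjusted p = 0.0439). For 8 of the 9 the 6 MIV libraries did not overlap the 6 EV libraries (1.25% of all genes). The median log2 fold change of the 9 was 8.58 as fitted and 7.81 from summed counts, against -0.00 over all genes and 0.23 over the 2697 muscle-enriched genes tested.

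Leaving out 1 library moved the calls over both days for all genes together. None of the 9 passed once EV day 3 replicate 1 or 3, or any 1 of the 3 EV day 7 libraries, was left out (lowest adjusted p 0.0609). In these fits 0 genes in all were called higher, or 2 without EV day 7 replicate 2, against 214 with all 12 libraries. Without EV day 3 replicate 2 the test called 2 of the 9, among 60 of 15450 genes higher, and without MIV day 3 replicate 1 it called 6, among 104 of 15338.

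At each day alone 0 of the 9 passed edgeR's test, as did 0% of all genes in either direction. At day 7 the adjusted p of the 9 ran from 0.0606 to 0.0837, and all 9 had an unadjusted p under 0.05 (2514 of all genes did). DESeq2 called all 9 higher there, among 639 of 15036 genes. At day 3 the adjusted p ran from 0.155 to 1, and 8 of the 9 had an unadjusted p under 0.05 (775 of all genes did). DESeq2 called 8 higher, all but ENSRNOG00000010646, among 236 genes. No label pairs the libraries, and a replicate block at day 7 alone was added after the data were seen. Its pairing was read from these same counts, so its calls are no independent support. With this block edgeR called ENSRNOG00000026087, ENSRNOG00000050042 and ENSRNOG00000002451 at day 7, among 36 genes higher. With the block within each day it called 5 at day 7, among 72 genes, and 1 at day 3, among 4. Without MIV day 7 replicate 2 it called 9 at day 7, among 649 genes, and 3 at day 3, among 70. Without MIV day 3 replicate 1 it called 2 at day 7, among 39. The MIV and EV libraries did not overlap for 9 of the 9 at day 7 (9.92% of all genes) and for 8 at day 3 (7.17%).

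Because many EV libraries held no count, the size of the difference was taken from counts summed over a group. At day 3 the level in MIV was 337-fold that in EV for ENSRNOG00000019527, 244-fold for ENSRNOG00000009047, 65.4-fold for ENSRNOG00000021014, 60.9-fold for ENSRNOG00000050675, 54.0-fold for ENSRNOG00000018286 and 1.22-fold for ENSRNOG00000010646. ENSRNOG00000002451, with 3 counts in EV, had a ratio of 121 (95% exact counting interval 41.1 to 588). ENSRNOG00000026087, with 2, had a ratio of 75.9 (20.7 to 631). ENSRNOG00000050042 had 125 counts in MIV and 0 in EV and was at least 34.0-fold higher against a floor of 3 counts over the group.

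At day 7 EV held no count of 4 genes. Against the same floor MIV was at least 3608-fold higher for ENSRNOG00000026087, at least 3168-fold for ENSRNOG00000009047, at least 1818-fold for ENSRNOG00000019527 and at least 288-fold for ENSRNOG00000021014. ENSRNOG00000050042 had 31594 counts in MIV and 1 in EV, a ratio of 34277 (6152 to 1353930). The level was 247-fold higher for ENSRNOG00000050675, 214-fold for ENSRNOG00000018286, 95.5-fold for ENSRNOG00000002451 and 2.70-fold for ENSRNOG00000010646. With genes at their bound the median log2 fold of the 9 was 6.03 at day 3 and 8.17 at day 7, and as fitted 6.01 and 11.26, against -0.02 and 0.01 over all genes. These intervals and floors cover counting error only.

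Single libraries set much of the size of these folds. MIV day 7 replicate 3 held 26943 of the 31594 MIV counts of ENSRNOG00000050042, and without it the day 7 ratio was 7266 (1303 to 287045). Without that library the day 7 fold of ENSRNOG00000050675 was 133, that of ENSRNOG00000018286 87.9 and that of ENSRNOG00000002451 30.4. The lower bounds were then 1328 for ENSRNOG00000009047, 1140 for ENSRNOG00000026087, 659 for ENSRNOG00000019527 and 118 for ENSRNOG00000021014, and ENSRNOG00000010646 stood at 2.73.

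At day 3, leaving out MIV replicate 1 gave folds of 141 for ENSRNOG00000019527, 73.5 for ENSRNOG00000009047, 28.5 for ENSRNOG00000021014, 26.6 for ENSRNOG00000018286 and 23.3 for ENSRNOG00000050675. The ratio of ENSRNOG00000002451 was then 59.1 (19.8 to 290), and the bound of ENSRNOG00000050042 was 17.3. Leaving out EV replicate 2 gave a fold of 202 for ENSRNOG00000018286 and a ratio of 110 (30.2 to 909) for ENSRNOG00000021014. It left no EV count of 3 genes, with bounds of 382 for ENSRNOG00000009047, 377 for ENSRNOG00000019527 and 33.9 for ENSRNOG00000026087. Leaving out EV replicate 3, the deepest EV library of that day, gave 158 for ENSRNOG00000009047, 217 for ENSRNOG00000019527, a ratio of 77.9 (26.5 to 379) for ENSRNOG00000002451, one of 49.0 (13.4 to 407) for ENSRNOG00000026087 and a bound of 21.9 for ENSRNOG00000050042. Leaving out EV replicate 1 left 1 EV count of ENSRNOG00000002451, a ratio of 248 (44.3 to 9813).

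Among the EV libraries of day 7, leaving out replicate 3 lowered the bounds to 2255 for ENSRNOG00000026087, 1980 for ENSRNOG00000009047, 1136 for ENSRNOG00000019527 and 180 for ENSRNOG00000021014. It gave ratios of 21421 (3844 to 846094) for ENSRNOG00000050042 and 209 (57.6 to 1728) for ENSRNOG00000002451. Leaving out replicate 1 removed the 1 EV count of ENSRNOG00000050042, which was then at least 7793-fold higher in MIV. For the 8 genes other than ENSRNOG00000010646, the lowest of these estimates and floor bounds was 17.3. The limits of the counting intervals are not included there and reached down to 13.4, for ENSRNOG00000026087 without EV day 3 replicate 3.

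The EV counts of the 8 genes other than ENSRNOG00000010646 were uneven: EV day 3 replicate 2 held 68, and the other 5 EV libraries 19 to 41. The muscle-specific share of that library was 3.09%, between those of the other 2 EV libraries of its day.

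From day 3 to day 7 in MIV, 2 of the 9 rose in edgeR's test, where 7.39% of all genes were called higher and 8.09% lower. The same MIV libraries chose the genes, so the test is no independent support. Against healthy muscle, which the choice used, ENSRNOG00000050042 had a ratio of 0.364 at day 3 and 123 at day 7. That of ENSRNOG00000026087 was 1.78 and 125, so the choice of both leaned on day 7. ENSRNOG00000050042 rose by a log2 fold change of 8.43 ± 1.64 (SE, edgeR adjusted p = 0.0129) and ENSRNOG00000026087 by 6.17 ± 1.38 (adjusted p = 0.0209), and these were also the 2 genes whose days did not overlap (15.1% of all genes, higher at day 7). The other 7 had log2 fold changes of 0.69 to 2.50, with adjusted p of 0.0904 to 0.577. The median of the 9 was 1.69, against 0.06 over all genes and 0.20 over muscle-enriched genes.

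Neither call held without MIV day 3 replicate 2 (lowest adjusted p 0.0612) or without MIV day 3 replicate 3 (0.0649). Calls fell over all genes in these fits, from 1111 higher to 334 and 262. With a replicate block ENSRNOG00000050042 alone passed, among 821 genes higher. Without MIV day 7 replicate 3 the values of ENSRNOG00000018286, ENSRNOG00000021014 and ENSRNOG00000002451 became -0.41, -0.03 and -0.91.

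**Figure D2:**
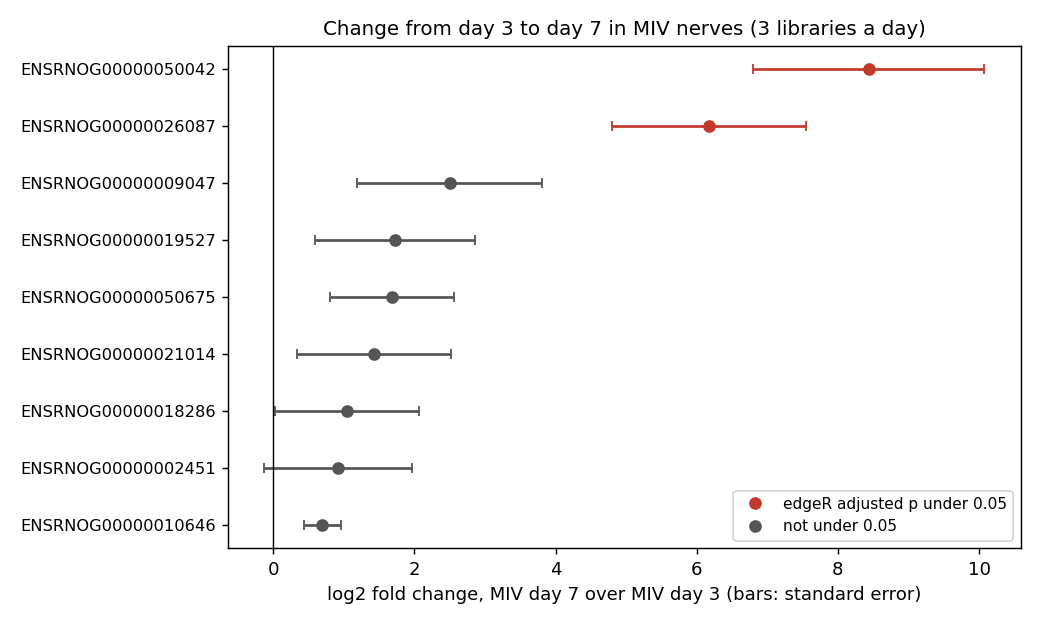
Log2 fold change from day 3 to day 7 in MIV for each gene (points), in red where the edgeR adjusted p was under 0.05. Bars show the standard error derived from the F statistic of the test. ENSRNOG00000050042 (8.43) and ENSRNOG00000026087 (6.17) are in red, and the other 7 lie between 0.69 and 2.50.

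In EV, 0 of the 9 passed between the days with edgeR (adjusted p 0.237 to 0.830, 0 with an unadjusted p under 0.05) or with DESeq2, where edgeR called 9.41% of all genes higher and 10.2% lower at day 7. ENSRNOG00000010646, the gene with ample EV counts, gave -0.46 ± 0.26 (SE). A test of whether the difference between MIV and EV changed with the day called 0 of the 9 with edgeR (adjusted p 0.906 to 1, 0% of all genes) and 0 with DESeq2. The 1 gene with an unadjusted p under 0.05 there was ENSRNOG00000010646, and 796 of all genes had one. Over the 6 EV libraries ENSRNOG00000050042 had 1 count, ENSRNOG00000026087 2, ENSRNOG00000019527 5 and ENSRNOG00000009047 7. With so few EV counts the test could show neither a change nor its absence for these genes. The SE derived from its F statistic was 284 for ENSRNOG00000050042, 7.04 for ENSRNOG00000026087, 5.04 for ENSRNOG00000019527 and 5.25 for ENSRNOG00000009047.

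A ratio within a library needs no scaling factor, so the counts of each gene were also set against the summed counts of the set of 6 in the same library. The ratio was chosen after the values were seen and carries no test. The pair and the set of 6 had been grouped by their levels in these same libraries. A rise of the pair against the 6 from day 3 to day 7 was therefore largely built in. ENSRNOG00000050042 amounted to 2.61% to 17.9% of the 6 in healthy muscle, 0.887% to 1.29% in MIV at day 3 and 33.1% to 124% at day 7. ENSRNOG00000026087 amounted to 0% to 6.30%, 0.823% to 3.52% and 8.04% to 35.9%. For both, all day 7 libraries lay above all others, with replicate 2 the lowest of the day.

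Within the set of 6, 3 made up a smaller part at day 7 than at day 3 in every library. ENSRNOG00000018286 made up 18.6% to 28.7% at day 3 and 9.35% to 13.01% at day 7. ENSRNOG00000002451 made up 3.22% to 4.96% and then 1.21% to 2.21%, and ENSRNOG00000021014 2.70% to 4.12% and then 1.40% to 2.63%. The days overlapped for ENSRNOG00000050675 (32.97% to 43.9% and 36.2% to 65.2%), ENSRNOG00000009047 (11.3% to 17.9% and 11.9% to 28.6%) and ENSRNOG00000019527 (15.9% to 17.7% and 10.9% to 17.4%). The 6 parts sum to the whole, so a smaller part of one goes with a larger part of another. How many of all genes would separate the days in such a ratio was not counted, so the 3 are given as a description only.

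**Figure D3:**
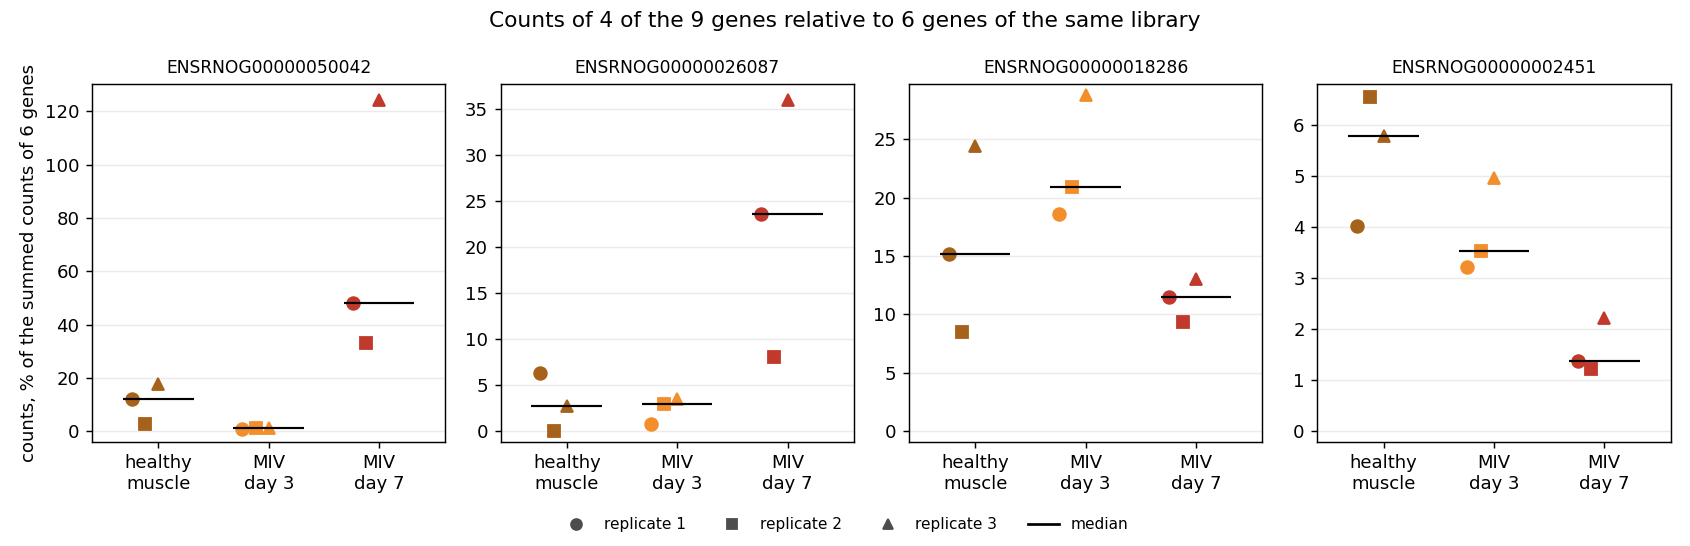
Counts of 4 genes as a percentage of the summed counts of the set of 6 in the same library (vertical axis), in healthy muscle and in MIV at days 3 and 7, 1 symbol per library and a line at the median. From day 3 to day 7 the median went from 1.19% to 48.2% for ENSRNOG00000050042, from 2.94% to 23.6% for ENSRNOG00000026087, from 20.9% to 11.5% for ENSRNOG00000018286 and from 3.52% to 1.38% for ENSRNOG00000002451.

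The spread between MIV libraries went with their muscle-specific share. The 8 genes other than ENSRNOG00000010646 summed to 479, 102 and 84.1 CPM in MIV at day 3, at shares of 5.74%, 3.78% and 3.70%. At day 7 they summed to 871, 103 and 3970 CPM, at shares of 8.91%, 2.59% and 18.5%. Within each day a library with a larger share held more of the 8. Across groups this did not hold: healthy muscle held 25.6 to 74.9 CPM, less than any MIV library, and EV held 1.18 to 4.35 CPM at shares of 2.602% to 3.39%, near that of MIV day 7 replicate 2. The part of muscle content in the spread was not tested. The 17 marker lists drawn up by gene symbol could not be measured, since the identifiers carry no names.

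**Figure D4:**
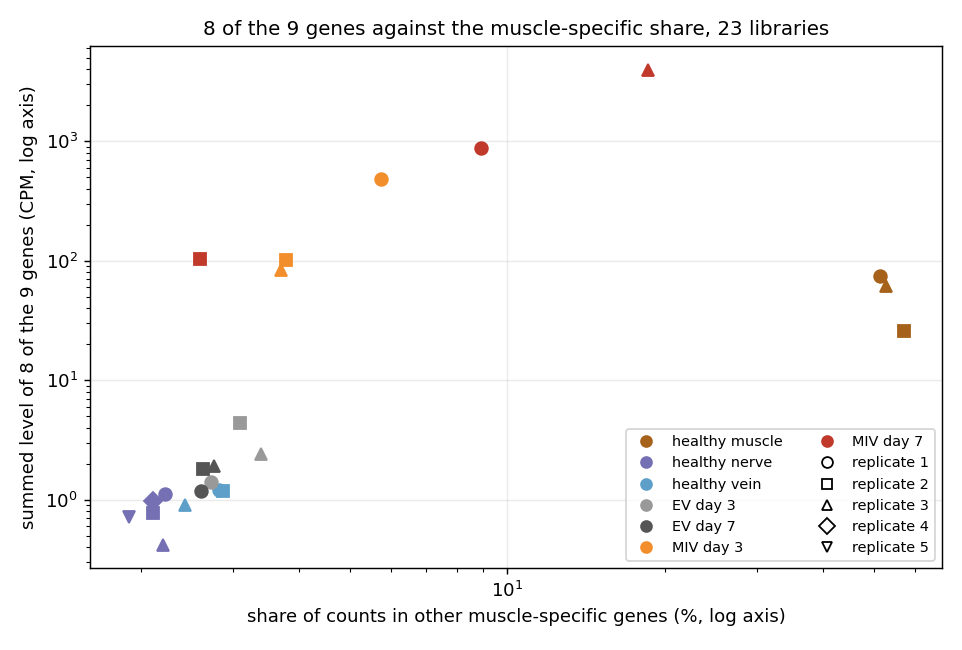
Summed level of the 8 genes (CPM, log axis) against the share of counts in the 802 other muscle-specific genes (%, log axis), 1 symbol per library. MIV day 7 replicate 2 lies at 2.59% and 103 CPM, above the EV libraries at 1.18 to 4.35 CPM, and healthy muscle lies at the right at 25.6 to 74.9 CPM.

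As a description over the 6 MIV libraries, which share day and muscle content, log2 levels of the set of 6 correlated with each other at a Pearson r of 0.824 to 0.994 and those of the pair at 0.966. Between the set of 6 and the pair r was 0.492 to 0.858. These groups had been formed from the levels in the same libraries, so a lower r between them than within them was largely built in. ENSRNOG00000018286, ENSRNOG00000021014 and ENSRNOG00000002451 put the 6 libraries in the same order. ENSRNOG00000010646 correlated with the other 8 at -0.06 to 0.62.

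Over the 23 libraries, 11794 genes with a mean of at least 10 CPM in their highest group were ranked by their correlation with the mean standardized profile of the 9. The nearest were ENSRNOG00000008536 (Pearson r 0.971) and ENSRNOG00000046276 (0.966), both muscle-enriched. ENSRNOG00000008536 stood at 52.2 ± 34.8 CPM in healthy muscle, 526.3 ± 493.1 CPM in MIV at day 3 and 1520 ± 1820 CPM at day 7 (SD, n = 3 each). ENSRNOG00000046276 stood at 22.6 ± 16.5, 297 ± 348 and 710 ± 801 CPM in the same groups (SD, n = 3 each).

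EV was set against healthy muscle and healthy nerve to see where the 9 genes stood after repair without MIV. Both references took part in choosing the genes. At day 3, 7 of the 9 were lower in EV than in healthy muscle with edgeR (33.1% of all genes lower and 34.4% higher), as were 2609 of the 2842 muscle-enriched genes. ENSRNOG00000009047 (adjusted p = 0.0728) and ENSRNOG00000010646 (adjusted p = 0.819) did not pass. At day 7, 8 of the 9 were lower (32.1% of all genes lower and 36.6% higher), with 2713 muscle-enriched genes, and ENSRNOG00000010646 did not pass (adjusted p = 0.195). ENSRNOG00000050675 was lower by a log2 fold change of -3.86 ± 0.80 at day 3 and -4.25 ± 0.82 at day 7 (SE, edgeR adjusted p = 0.000280 and 0.000138).

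The median of the 9 in these comparisons was -4.70 at day 3 and -7.15 at day 7 as fitted, against 0.11 and 0.22 over all genes and -2.29 and -2.38 over muscle-enriched genes. From summed counts with bounds, healthy muscle lay above EV by a median log2 fold of 4.74 and 4.38. For 6 of the 9 all healthy muscle libraries lay above all EV libraries (28.7% of all genes). Without EV day 3 replicate 1, or without replicate 3 of that day, 4 of the 9 passed at day 3, where 5210 and 5070 of all genes were called lower. In a fit of the compared groups alone 5 of the 9 did not pass the filter on low counts, and 3 of the other 4 were called lower at each day (4413 of 13711 genes at day 3 and 4861 of 14083 at day 7).

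Against healthy nerve ENSRNOG00000010646 rose in EV, by a log2 fold change of 2.01 ± 0.24 at day 3 and 1.54 ± 0.24 at day 7 (SE, edgeR adjusted p = 6.1e-07 and 2.8e-05), with all 3 EV libraries of each day above all 5 nerve libraries. It was the 1 gene of the 9 called, where 30% of all genes were higher and 30.7% lower at day 3, and 24.1% and 24% at day 7. ENSRNOG00000050675 gave 1.77 ± 0.87 at day 3 (adjusted p = 0.0868) and passed there with DESeq2, which also called ENSRNOG00000021014 lower in EV at day 7. ENSRNOG00000018286 had 39 counts in EV at day 3, 20 in EV at day 7 and 19 in nerve, and edgeR did not call it. The rest of the 9, apart from ENSRNOG00000010646 and ENSRNOG00000050675, had few or no counts in EV and nerve (5 and 10 for ENSRNOG00000021014). For these and for ENSRNOG00000018286 small differences were not detectable at this depth.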

How the data were processed

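Per the labels' protocols, RNA was isolated with TRIzol, and poly-T beads took mRNA from 350 ng of total RNA into libraries that do not mark strand, so overlapping genes on opposite strands cannot be told apart. The submitters' processing notes name CASAVA and HISAT2, without versions. Counting tool, genome build, annotation and the handling of reads shared by near-identical genes: not given in the sources used here. The authors deposited raw counts, not normalized, in 1 table with a column for each of the 23 libraries. None of its 32545 identifiers matched the reference table (GRCr8, 47357 genes), so no symbol list could be measured.

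The counts were tested with edgeR 4.0.16 under R 4.3.3: filterByExpr (minimum count 10, total 15), TMM, robust quasi-likelihood fits with a coefficient for every group, and Benjamini-Hochberg adjustment over all genes with a threshold of 0.05. The 12 repaired libraries (15036 genes) served comparisons between repaired nerves, and all 23 (15954 genes) served the rest and the printed CPM. Log2 CPM used a prior count of 2. EdgeR's test returns no standard error. Each SE printed with it is the absolute log2 fold change divided by the square root of the test's F statistic. Alternatives were DESeq2 1.42.0, other scalings, no filter, other sets of libraries, replicate blocks and left-out libraries. The block at day 7 alone and the folds without single libraries were added after the data were seen. The 9 genes and the lists were chosen with earlier results of these data known. All 9 are named, with the nearest genes by profile and by ratio.

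No label says that replicate numbers pair libraries. For the block at day 7 alone they were taken to pair EV and MIV libraries, from the counts themselves. The fit with that block tests the same counts, so its calls are no independent support. At day 7 the deviations of same-numbered libraries from their group means correlated at 0.224, 0.202 and 0.177. At day 3 the values were -0.09, 0.24 and -0.02, and the numbers were not taken to pair libraries. No libraries held identical counts.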

Additional observations from a re-analysis of the deposited data

Results flagged for a closer look

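Among the 5 healthy nerve libraries, replicate 1 stood apart for ENSRNOG00000026087 and for ENSRNOG00000002451, at 0.0615 CPM each, which is 1 count, where the other 4 libraries had 0. With 4 libraries at 0, a single count always meets the criterion for a gap, so the rate at which chance flags a group, about 5%, does not apply to these 2 genes.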

How the results depend on the processing

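With 3 libraries in each repaired group, a wide spread in MIV at day 7 and EV counts near 0, both the calls and the fitted sizes are fragile. Of 1478 single-gene values under alternatives, 1307 kept direction and side of the threshold, 92 no longer passed, 60 newly passed and 19 changed sign, and the cause was not tested. Counts of the 9 genes called follow, each with the number of all genes called higher (for healthy muscle, lower) in the same fit. For MIV against EV at day 3 (0 with edgeR), DESeq2 called 8 (236), all 23 libraries in one fit 4 (154) and the replicate block within day 1 (4), and leaving out 1 library gave 0 to 3 (0 to 70). At day 7 (0) they called 9 (639), 9 (827) and 5 (72), the replicate block at day 7 alone 3 (36), and leaving out 1 library gave 0 to 9 (0 to 649). Over both days (9, of 214), the replicate block called 7 (98) and the block within day 8 (128), and leaving out 1 library gave 0 to 9 (0 to 648). For MIV day 7 against day 3 (2, of 1111), the replicate block called 1 (821), and leaving out 1 library gave 0 to 2 (262 to 1847). EV against healthy muscle gave 7, of 5277, at day 3 and 8, of 5127, at day 7. A fit of the compared groups alone called 3 (4413) and 3 (4861) of the 4 genes that passed its filter on low counts. Leaving out 1 library gave 4 to 8 (4905 to 5210) at day 3 and 6 to 8 (4783 to 4923) at day 7. For EV against healthy nerve (1 at each day, of 4783 at day 3 and 3841 at day 7), DESeq2 called 2 at day 3 (4831) and 2, 1 of them lower, at day 7 (3937). A fit of the compared groups alone tested 2 of the 9 at day 3 and called both, 2 (4864), and tested and called 1 at day 7 (4306). The replicate block took no other count past 1.5 times its value.

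Sign changes, in log2 fold changes, were as follows, with the range over left-out libraries where these caused them. In EV day 7 against day 3, ENSRNOG00000050675 ranged from -0.74 to 0.12 and ENSRNOG00000018286 from -1.57 to 0.82. In MIV day 7 against day 3, ENSRNOG00000018286 ranged from -0.41 to 2.05, ENSRNOG00000021014 from -0.0343 to 2.605 and ENSRNOG00000002451 from -0.91 to 1.93. In the change of the MIV effect between days, ENSRNOG00000002451 ranged from -1.91 to 0.92 and was 0.0078 with TMM factors from genes that are not muscle-enriched. In EV day 3 against healthy muscle, ENSRNOG00000010646 ranged from -0.10 to 0.27 and was -0.31 with those factors. In EV day 3 against healthy nerve, ENSRNOG00000026087 ranged from -1.35 to 2.62, ENSRNOG00000018286 from -0.12 to 2.28 and ENSRNOG00000021014 from -0.92 to 0.13, and the last was 0.39 with a replicate block.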
